A study of Homo sapiens with 13 samples.

Results

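The first hours of the response to BMP4 were described from 3 libraries of GFP::SMAD4 RUES2, which is a line of human embryonic stem cells with a fluorescent tag on SMAD4. The members are 1 library collected after 4 h in BMP4 at 100 ng/mL together with IWP2 at 5 µM, and 2 libraries labelled 0 h. They are 3 of the 13 RNA-seq libraries of the series. IWP2 blocks the secretion of Wnt ligands. The 0 h labels carry the same treatment text as the 4 h label and were read as cells collected when treatment started. Cells of every group were of this 1 line and were seeded at low density in mTeSR1 with ROCK inhibitor the day before. There was no untreated library at 4 h, so that BMP4, IWP2, the change of medium and time in culture cannot be told apart in the contrast. There was no replicate at 4 h, and nothing in the labels says that the 0 h libraries came from separate cultures, so that the spread between them may be technical. Set beside the contrast, without sharing a library with it, were 6 libraries taken at 5 h: BMP4 and IWP2 with 0, 10, 30, 100 or 300 nM of the BMP receptor inhibitor LDN-193189, called LDN from here on, and untreated cells, each as 1 library. The labels of the libraries with BMP4 also name the ROCK inhibitor, while that of the untreated library names mTeSR alone.

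Summed over all features listed, 0 h replicate 1 held 37957385 counts, 0 h replicate 2 held 71333471 and the 4 h library 45325864. A count of 3 corresponded to between 0.0421 and 0.079 CPM, the count scaled to a common library total, in these libraries. Values below this floor rest on very few counts, but they were not left out of the test or the text. The share of counts on mitochondrially encoded genes was 7.60% in 0 h replicate 1, 4.29% in 0 h replicate 2 and 4.23% at 4 h. It was 7.89% in the untreated library at 5 h and between 4.22% and 4.49% in the 5 libraries with BMP4. Markers of pluripotent cells were high in all 3 libraries: LIN28A was at 3017 and 2966 CPM at 0 h and 3025 CPM at 4 h, and POU5F1 was at 1003, 1721 and 1342 CPM. POU5F1 already differed between the 0 h libraries by 0.78 on the log2 scale, and its 4 h value lay between them.

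BMP ligands signal through receptor kinases that phosphorylate SMAD1, SMAD5 and SMAD9, which enter the nucleus with SMAD4 and act on target genes there. Among the best known targets are the ID genes, whose products bind and block basic helix-loop-helix transcription factors, and inhibitors that act back on the pathway, such as SMAD6, SMAD7 and BAMBI. In human pluripotent cells held without Wnt signalling, BMP4 leads towards amnion-like cells, and GATA2, GATA3, TFAP2A and TFAP2C are transcription factors known from that lineage and from trophectoderm and surface ectoderm.

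Of 61541 genes listed, 15992 averaged 1 CPM or more across the 3 libraries and were tested. After 4 h, 601 of them had risen (3.76%) and 115 had fallen (0.719%) at an adjusted p under 0.05 by edgeR's quasi-likelihood test. DESeq2 called 366 and 78, of which 365 and 74 were shared with edgeR. At an unadjusted p under 0.05 by edgeR the counts were 1300 and 411. The median log2 change was 1.46 among genes that rose and −1.29 among genes that fell, against 0.0618 over all genes tested. Here and in what follows a log2 change is log2 of the 4 h CPM plus 0.5 minus log2 of the mean 0 h CPM plus 0.5, which understates the change of genes at low level. Where a value is given as fitted, it is the estimate of edgeR with its standard error (SE). By a simple rule of at least 2-fold with the 4 h value outside both 0 h values, 641 genes (4.01%) were higher and 105 (0.657%) lower. In a bulk sample, less RNA per cell and fewer cells that hold the RNA cannot be told apart.

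The difference between the 0 h libraries gave the scale of noise. Its standard deviation over genes was 0.385 on the log2 scale, against 0.512 for the change at 4 h. For the typical gene the 4 h value was no farther from the 0 h mean than the 0 h libraries were from each other, with medians of the absolute difference of 0.209 and 0.248. The measures are not quite alike here and in the counts below. The change is taken from a mean of 2 libraries, which lowers its noise, and the 0 h difference lies between single libraries. The response was in the tails. At 2-fold or more, 641 genes were higher and 110 lower at 4 h, while 167 genes (1.04%) lay that far apart at 0 h. At 4-fold or more (2 on the log2 scale), there were 153 higher and 17 lower, against 23 at 0 h. At 8-fold (3 on the log2 scale), there were 57 higher, 3 lower and 4 apart at 0 h. The 3 lower were FOXB1, PRICKLE1 and ENSG00000288534, and the 4 apart at 0 h were MT-RNR2, ENSG00000270066, ENSG00000279033 and ENSG00000285976, which were chosen after their values were seen. At 6 or more on the log2 scale there were 5 genes, all higher at 4 h: SAMD11, PCAT14, TFAP2A, GATA3 and GATA2.

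**Figure D1:**
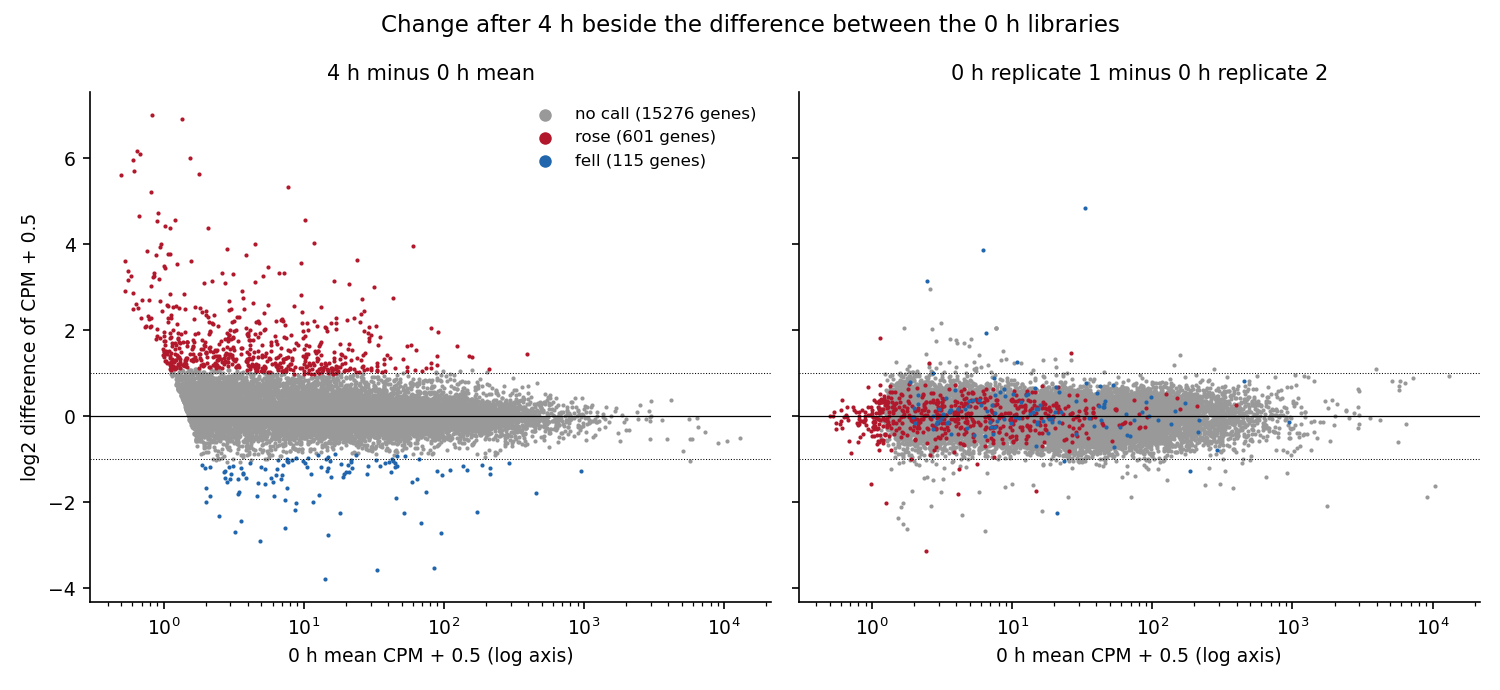
Each point is 1 of the 15992 genes tested, placed by its 0 h mean CPM plus 0.5 on a log axis, with its log2 change at 4 h on the left and the log2 difference between the 0 h libraries on the right on the same scale; dotted lines mark 2-fold. The 601 genes that rose reach 7 and the 115 that fell reach −3.79, and the points of the right panel lie mostly within the dotted lines.

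The 3-library fit had 1 residual degree of freedom per gene and took the same spread for all genes of like level, so a gene whose own 0 h values lay far apart could still be called. The 4 h value of all 601 genes that rose lay above both 0 h values, and that of 110 of the 115 that fell lay below both. The other 5 were MT-RNR2, RPL6P27, SCARNA10, ENSG00000279033 and ENSG00000285976, named after their values were seen. ENSG00000285976, for example, was at 63.1 and 1.74 CPM at 0 h and 15.7 CPM at 4 h. The change was larger than the gene's own 0 h difference for 596 of the 601 and 107 of the 115. The 5 exceptions that rose, likewise named after the fact, were FAM187A, RAET1E-AS1, ENSG00000261093, ENSG00000270066 and ENSG00000285238. A 0 h mean below 1 CPM was found for 153 of the genes that rose, which passed the filter only through their 4 h value and so had to differ. Such genes were also among the members of several lists below, where they lift the counts of rises and the medians. Among genes with a 0 h mean of 100 CPM or more, 5 of 2246 rose (GSE1, MIAT, PLEC, SALL3 and ZMIZ1, of which MIAT, at 172 and 128 CPM at 0 h and 397 CPM at 4 h, was named after its value was seen) and 10 fell.

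All 4 ID genes rose. ID1 was at 56.4 CPM in 0 h replicate 1, 63.9 CPM in 0 h replicate 2 and 942 CPM at 4 h, a fitted log2 change of 3.89 ± 0.34 (SE, adjusted p = 1.34e-27). ID3 was at 29.0 and 33.5 CPM at 0 h and 253 CPM at 4 h (fitted 2.94 ± 0.32, adjusted p = 4.17e-18). For each of them the 0 h values lay close together and the 4 h value far above. ID4 went from 10.3 and 12.4 CPM to 192 CPM, 17.0-fold the 0 h mean. ID2 changed least of the 4, from 8.25 and 9.95 CPM to 67.6 CPM (7.43-fold). The 4 ID genes summed to 104 and 120 CPM at 0 h and 1454 CPM at 4 h.

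Of 19 inhibitors of BMP signalling listed, 16 were tested, 6 rose and none fell at the threshold, against 3.76% and 0.719% of all genes tested. The median log2 change was 0.55 over the 16. At an unadjusted p under 0.05, 8 were higher and 0 lower, and DESeq2 called 5 and 0. SMAD6, the inhibitory SMAD most specific to BMP receptors, had the largest log2 change with 0.5 CPM added, 5.33, while the fitted change of NOG was larger at 5.59 ± 0.38. SMAD6 was at 6.59 and 7.78 CPM at 0 h and 308 CPM at 4 h, 42.9-fold the 0 h mean (fitted log2 change 5.34 ± 0.34, adjusted p = 4.41e-52). BAMBI, a pseudoreceptor without a kinase domain, went from 9.06 and 10.3 CPM to 240 CPM (adjusted p = 1.23e-40). SMAD7, which also acts on activin and TGF-beta receptors, went from 22.9 and 27.1 CPM to 132 CPM (adjusted p = 4.71e-12). The secreted antagonists that rose started from 0 h values below 1 CPM and passed the filter only through their 4 h value. They could therefore only come out as higher, and they lift the count of 6 and the median. NOG was at 0.395 and 0.393 CPM at 0 h, from 15 and 28 counts, and at 20.2 CPM at 4 h (adjusted p = 1.54e-45). GREM1 was at 0.869 and 0.547 CPM and then 27.9 CPM (adjusted p = 7.74e-49). CHRD, which encodes chordin, went from 0.685 and 0.729 CPM to 3.07 CPM (adjusted p = 0.000391), a call lost with DESeq2 (adjusted p = 0.065). FST, which encodes the activin antagonist follistatin, was at 11.6 and 14.2 CPM at 0 h and 10.7 CPM at 4 h and was not called.

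The promoters of the 4 ID genes and of the 6 inhibitors that rose were searched, genes picked for their rise, and those with a longer motif are shown. SMAD proteins are known to bind the palindrome GTCTAGAC, the shorter GTCT and GC-rich sites such as GGCGCC. RefSeq windows on GRCh38.p14 were matched by symbol for 9 of the 10 genes, with no entry for NOG. In the 250 bases before the start, GTCTAGAC was found in 1 of the 9 (SMAD6), GGCGCC in 3 (BAMBI, GREM1 and CHRD), and neither in the other 5 (ID1, ID2, ID3, ID4 and SMAD7). Over all 35116 RefSeq windows, 0.182% held GTCTAGAC, 16.4% held GGCGCC and 77.5% held GTCT on either strand. The first and second of these read alike on both strands, and GTCTAGAC contains GTCT on each strand. GTCT was found in 8 of the 9. The following stretches of 100 bases, 5′ to 3′, have GTCTAGAC and GGCGCC in capitals. They lie on the plus strand at chr15:66702136-66702235, chr10:28677276-28677375, chr15:32717886-32717985 and chr3:184379954-184380053 in this order. SMAD6 holds the palindrome shortly before its start, BAMBI holds 3 copies of GGCGCC and GREM1 holds 2.
SMAD6: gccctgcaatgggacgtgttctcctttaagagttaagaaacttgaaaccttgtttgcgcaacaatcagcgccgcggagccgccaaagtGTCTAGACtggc
BAMBI: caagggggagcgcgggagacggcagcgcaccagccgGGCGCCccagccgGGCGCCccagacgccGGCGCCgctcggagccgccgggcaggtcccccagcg
GREM1: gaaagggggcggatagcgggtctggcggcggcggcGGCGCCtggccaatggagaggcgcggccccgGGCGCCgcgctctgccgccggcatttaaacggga
CHRD: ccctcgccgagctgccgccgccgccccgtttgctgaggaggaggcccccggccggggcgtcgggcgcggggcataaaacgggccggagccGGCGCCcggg

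Among 15 tested receptors, SMADs and ligands of the pathway, 2 rose and 1 fell, with a median log2 change of 0.27. Beside these counts, 3.76% of all genes tested rose and 0.719% fell. SMAD9, a SMAD that BMP receptors phosphorylate, went from 2.61 and 1.63 CPM to 25.7 CPM (adjusted p = 2.39e-26). The ligand gene BMP7 went from 6.30 and 6.38 CPM to 31.7 CPM (adjusted p = 6.24e-12). BMP2 fell from 13.8 and 15.2 CPM to 6 CPM (adjusted p = 0.00193). BMP4 itself was at 4.53 and 5.09 CPM at 0 h and 5.89 CPM at 4 h, without a call. The other 11 receptors, SMADs and ligands were not called either.

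Of 28 further transcription factors known to respond to BMP, 12 were tested. Of these 6 rose and 1 fell, against 3.76% and 0.719% of all genes tested. MSX2 and ATOH8 had 0 h means below 1 CPM and passed the filter only through their 4 h value. They could therefore only come out as higher, and they lift the count of 6. MSX2, a homeobox factor, went from 0.474 and 0.589 CPM to 21.6 CPM (fitted log2 change 5.24 ± 0.36, adjusted p = 1.71e-43), while MSX1 stayed at or below 0.199 CPM in the 3 libraries and was not tested. HEY1 and HEY2, related repressors of the Notch pathway, moved in opposite directions. HEY1 rose from 0.922 and 1.21 CPM to 18.5 CPM (adjusted p = 6.74e-28), and HEY2 fell from 48.2 and 41.5 CPM to 11.6 CPM (adjusted p = 6.93e-07). HES1, another repressor of this family, rose from 8.88 and 9.53 CPM to 51.6 CPM (adjusted p = 6.17e-13). KLF4, ATOH8 and VENTX also rose, with log2 changes of 1.39, 1.75 and 1.10. The call of VENTX was lost with DESeq2 (adjusted p = 0.234), with no filter on low counts (0.0756) and with a fit on all 7 time points (0.0661).

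The transcription factors of amnion and surface ectoderm held the largest rises of any list but the ID genes by the median, 1.39 over 14 tested. Of the 14, 7 rose and 1 fell, against 3.76% and 0.719% of all genes tested. TFAP2A, GATA3, HAND1 and TBX3 had 0 h means below 1 CPM and passed the filter only through their 4 h value. They could therefore only come out as higher, and they lift the count of 7 and the median. TFAP2A was at 0.158 and 0.140 CPM at 0 h, from 6 and 10 counts, and at 45.7 CPM at 4 h, from 2070 counts (fitted log2 change 8.18 ± 0.40, adjusted p = 4.89e-88). GATA3 was at 0.158 and 0.196 CPM, from 6 and 14 counts, and then at 45.6 CPM (fitted 7.87 ± 0.39, adjusted p = 7.78e-86). GATA2 was at 1.16 and 0.939 CPM and then at 99.3 CPM (fitted 6.50 ± 0.35, adjusted p = 3.21e-71). These genes were close to absent at 0 h in both libraries and well measured after 4 h. HAND1 was at 2 and 1 counts at 0 h and 271 counts (5.98 CPM) at 4 h (adjusted p = 5.23e-31). TBX3 went from 0.501 and 0.715 CPM to 3.71 CPM, and GRHL3, a factor of surface epithelia, from 2.05 and 1.12 CPM to 42.6 CPM. TFAP2C was already measured at 0 h, at 10.2 and 10.4 CPM, and reached 42.9 CPM (adjusted p = 6.97e-09). IRX2 went the other way, from 95.0 and 94.2 CPM to 14 CPM (fitted −2.83 ± 0.37, adjusted p = 5.68e-12). ISL1, at 0.263, 0.505 and 0.397 CPM, was below the level needed for a test. Of 12 tested markers of later amnion and epithelium, 1 rose: IGFBP3, a binding protein of insulin-like growth factors, from 12.5 and 15.7 CPM to 57.3 CPM (adjusted p = 1.91e-08). KRT18 was at 249 and 346 CPM at 0 h and 204 CPM at 4 h and was not called.

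The 20 protein coding genes with the largest rise at 5 CPM or more also held genes of other kinds. SAMD11, which encodes a SAM domain protein, led them by the log2 change with 0.5 CPM added, though not by the fitted change, which was larger for TFAP2A. It went from 0.184 and 0.463 CPM at 0 h to 105 CPM at 4 h (fitted log2 change 8.13 ± 0.39, adjusted p = 7.35e-92). UTS2R and PTH1R, G protein-coupled receptors for urotensin and parathyroid hormone, went from 0.290 and 0.350 CPM to 30.1 CPM and from 0.342 and 0.477 CPM to 23.7 CPM. GATA5, a factor known from heart and gut, went from 0.158 and 0.168 CPM to 16.3 CPM. The chromatin protein gene BAHCC1 went from 1.37 and 1.21 CPM to 88.1 CPM. CBLN1, which encodes a secreted synapse organizer, went from 3.37 and 4.65 CPM to 72.2 CPM. ANKRD63 and UBE2QL1 completed the 20, with 22.5 and 14.8 CPM at 4 h and at most 0.827 CPM at 0 h. For each of the 20 the 4 h value lay above both 0 h values, by more than the 0 h values differed. This is no check of the rises, since the 20 were chosen for a large rise. SAMD11, UTS2R, PTH1R, GATA5, ANKRD63 and UBE2QL1, below 1 CPM at 0 h, also passed the filter only through their 4 h value.

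**Figure D2:**
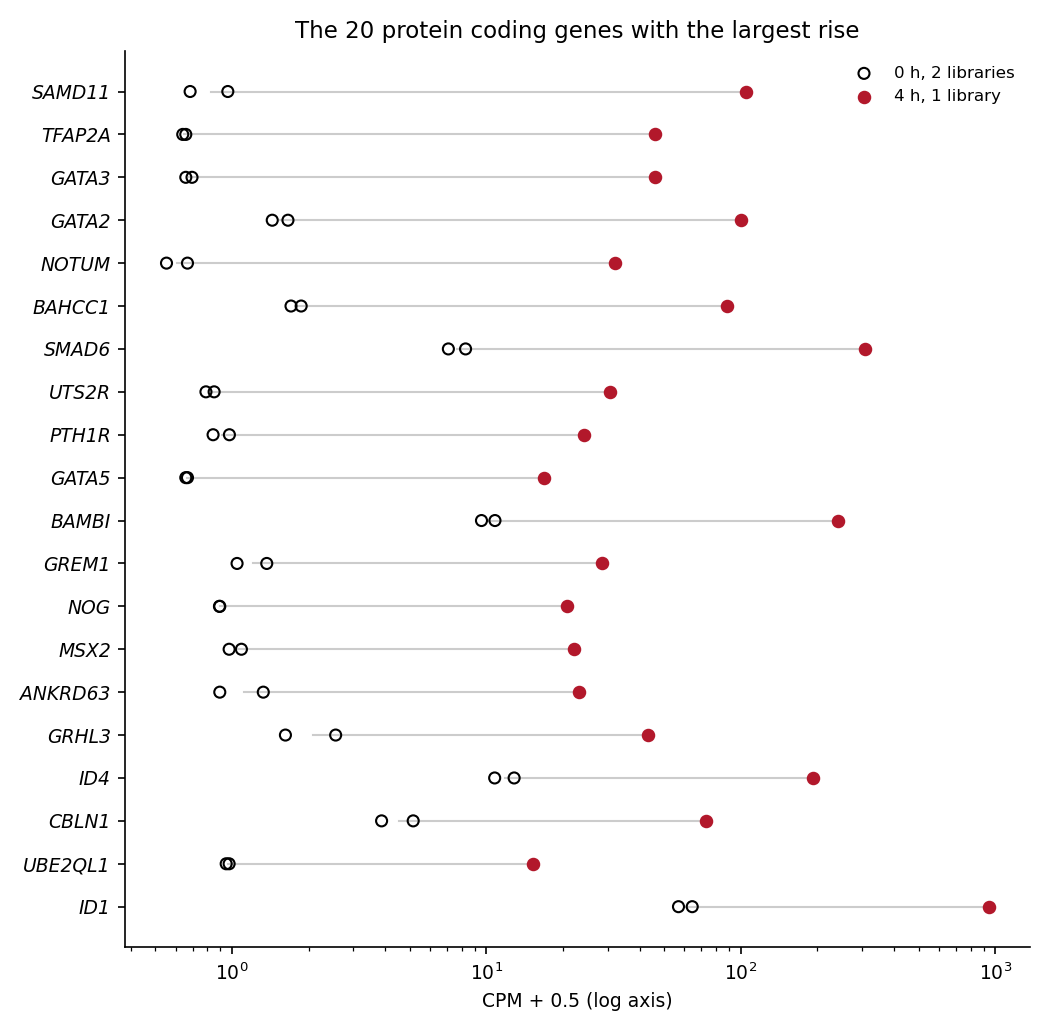
The 20 called protein coding genes with the largest log2 rise at 5 CPM or more, with CPM plus 0.5 on a log axis; open circles are the 2 libraries at 0 h, the filled circle the 1 library at 4 h, and the line runs from the 0 h mean. SAMD11 goes from below 1 CPM to 105 CPM and ID1 from about 60.1 CPM to 942 CPM.

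The genes with the largest rise in CPM were for the most part expressed before treatment. PLEC, which encodes the cytoskeletal linker plectin, went from 430 and 357 CPM to 1067 CPM (2.71-fold, adjusted p = 0.00238), and FLNC, which encodes a filamin, from 82.0 and 78.6 CPM to 334 CPM (4.17-fold, adjusted p = 5.07e-08). UNC5B, a netrin receptor, went from 90.3 and 91.5 CPM to 354 CPM (3.89-fold). The transcription factors SALL3 (166, 149 and 411 CPM) and NKX1-2 (40.8, 45.6 and 291 CPM) and the cofactor ZMIZ1 (146, 102 and 383 CPM) were also among them. GSE1 was at 226, 190 and 445 CPM (adjusted p = 0.044) and lost its call with no filter on low counts (0.0882).

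Wnt targets and regulators moved in both directions. Of 17 tested, 5 rose and 4 fell, against 3.76% and 0.719% of all genes tested. Their median log2 change was 0.27. NOTUM, a secreted enzyme that inactivates Wnt ligands, went from 0.0527 and 0.168 CPM, or 2 and 12 counts, to 31.5 CPM (fitted 7.86 ± 0.41, adjusted p = 1.33e-78). NOTUM passed the filter only through its 4 h value, so that it could only come out as higher and lifts the count of 5. WNT3, a ligand, went from 1.32 and 1.85 CPM to 9.80 CPM (adjusted p = 4.67e-10). The others that rose were TCF7, NKD1 and KREMEN1, by 1.24, 1.32 and 1.48 on the log2 scale. AXIN2, the common feedback target of beta-catenin, fell from 65.4 and 62.6 CPM to 22.9 CPM (adjusted p = 0.000227). FZD7, a Wnt receptor, fell from 903 and 993 CPM to 390 CPM (adjusted p = 0.0109), the largest fall in CPM among called protein coding genes outside the mitochondrial genome. MYC fell from 152 and 139 CPM to 60.6 CPM (adjusted p = 0.0044), the 1 called gene of 15 in the MYC network. SP8 fell from 3.37 and 3.01 CPM to 0.993 CPM (adjusted p = 0.00607, or 0.0538 with DESeq2). The Wnt targets DKK1 and SP5 were at or below 0.199 CPM in the 3 libraries. At 5 h AXIN2 was at 15.3 CPM with BMP4 and IWP2, 40.0 CPM with 300 nM LDN added and 45.3 CPM untreated. In the same order MYC was at 55.7, 102 and 128 CPM, and FZD7 at 205, 455 and 700 CPM. The part of IWP2 in the falls was not tested.

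In the Nodal and activin pathway 3 of 18 tested genes rose and 1 fell. CFC1, which encodes a Nodal coreceptor and has a near-identical copy in the genome that makes its own level uncertain, went from 0.553 and 0.925 CPM to 14 CPM. INHBB, which encodes an activin subunit, went from 0.764 and 0.813 CPM to 6.93 CPM. CFC1 and INHBB passed the filter only through their 4 h value. They could therefore only come out as higher, and they lift the count of 3. FURIN, a protease that processes ligand precursors, went from 60.3 and 65.8 CPM to 185 CPM. LEFTY1, an antagonist and target of Nodal, fell from 15.1 and 20.1 CPM to 3.33 CPM (adjusted p = 3.81e-10), while LEFTY2, a close relative that can share reads with it, was at 6.22, 10.5 and 8.32 CPM. NODAL was at 5.14, 7.93 and 3.99 CPM (adjusted p = 0.343). Of 24 genes of FGF signalling and its feedback, 2 rose and none fell at the threshold: FGF4, from 1.61 and 1.82 CPM to 19.0 CPM (adjusted p = 1.28e-21), and the receptor gene FGFR3, from 19.3 and 28.1 CPM to 301 CPM (adjusted p = 3.89e-26). Over all genes tested, 3.76% rose and 0.719% fell. The feedback genes DUSP6 (32.6, 36.1 and 27.2 CPM) and SPRY4 (189, 143 and 267 CPM) were not called. At an unadjusted p under 0.05, 2 genes of this list were higher and 3 lower, and DESeq2 called 2 and 0.

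Of 19 tested immediate early genes, 3 rose and 1 fell (MYC). FOSL2 went from 4.56 and 5.05 CPM to 21.0 CPM (adjusted p = 2.06e-09) and JUND from 80.9 and 96.9 CPM to 237 CPM (adjusted p = 0.00112). FOS was at 7.14, 6.80 and 14.9 CPM (adjusted p = 0.0248, lost with DESeq2 at 0.178 and with no filter on low counts at 0.113), and EGR1 at 5.37, 4.21 and 6.09 CPM without a call. The suppressors of cytokine signalling SOCS2 and SOCS3 rose, from 14.4 and 15.9 CPM to 69.4 CPM and from 20.7 and 31.8 CPM to 59.4 CPM, together with STAT5A, 3 of 14 tested genes of their list. The call of SOCS3 was lost with DESeq2 (adjusted p = 0.0889) and with no filter on low counts (0.0539). In the Notch pathway the ligand gene JAG2 rose (6.56, 8.52 and 22.6 CPM, adjusted p = 2.84e-05) and the ligand gene DLL1 fell (6.11, 6.71 and 2.01 CPM, adjusted p = 0.000593), beside HES1, HEY1 and HEY2, so that 3 of 16 rose and 2 fell. For these lists and the next, the shares over all genes tested were 3.76% higher and 0.719% lower. Of 27 cell cycle genes, CDKN1C, an inhibitor of cyclin-dependent kinases, and GADD45B rose, by 1.35 and 2.09 on the log2 scale. Its relative GADD45G fell from 10.9 and 17.9 CPM to 1.70 CPM (adjusted p = 2.7e-14).

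Of 27 genes of the pluripotent state, all tested, 5 fell and none rose at the threshold, against 0.719% and 3.76% of all genes tested. Their median log2 change was −0.28, against 0.0618 over all genes tested. At an unadjusted p under 0.05, 2 were higher and 7 lower, and DESeq2 called 0 and 5. The 5 included ZIC2, which edgeR did not call (247, 215 and 123 CPM, adjusted p = 0.0937 by edgeR). FOXD3, a forkhead factor of the epiblast and neural crest, fell from 58.0 and 79.5 CPM to 12.0 CPM (fitted −2.60 ± 0.36, adjusted p = 8.76e-11). OTX2 fell from 71.8 and 76.3 CPM to 21.6 CPM (fitted −1.85 ± 0.35, adjusted p = 6.49e-06), and PRDM14 from 53.7 and 63.9 CPM to 20.0 CPM (fitted −1.64 ± 0.34, adjusted p = 8.06e-05). The 4 h values of these factors were well below both 0 h values. The lncRNA LNCPRESS1 was at 13.6, 15.4 and 7.32 CPM (adjusted p = 0.0275), a call lost with DESeq2 (0.1), with library totals (0.0566) and at a mean of at least 5 CPM (0.0597). The core factors were not called. SOX2 was at 389 and 375 CPM at 0 h and 242 CPM at 4 h, below both 0 h values (fitted −0.74 ± 0.35, adjusted p = 0.39). NANOG was at 146, 116 and 148 CPM, and DNMT3B, which encodes a DNA methyltransferase, at 2009, 1999 and 1919 CPM. Of the SOX factors, SOX3 fell from 18.5 and 19.0 CPM to 7.10 CPM and SOX21 from 17.5 and 18.2 CPM to 7.99 CPM. These were 2 of 11 tested, against 0.719% of all genes tested.

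Transcription factors and genes of other kinds were among the largest falls outside these lists. FOXB1, a forkhead factor of the neural tube, fell from 14.3 and 13.2 CPM to 0.529 CPM (25.9-fold, fitted −4.76 ± 0.45, adjusted p = 5.93e-24). PRICKLE1, a component of planar cell polarity, fell from 87.0 and 81.8 CPM to 6.91 CPM (12.2-fold, fitted −3.69 ± 0.39, adjusted p = 1.17e-18). FOXJ1, the master factor of motile cilia, was at 8.04, 8.37 and 1.41 CPM, MYB at 12.5, 9.80 and 2.43 CPM, and POU3F4 at 14.7, 10.1 and 3.15 CPM. NR5A2, a nuclear receptor, was at 8.33, 5.76 and 1.88 CPM. STC1, which encodes the secreted glycoprotein stanniocalcin, fell from 64.8 and 38.8 CPM to 10.5 CPM (adjusted p = 3.84e-09), and C6orf141 from 5.77 and 7.88 CPM to 1.39 CPM. ENSG00000288534 (41.8, 24.4 and 2.34 CPM) is a read-through gene that overlaps its neighbours, and MT-ND3 (577, 327 and 130 CPM) is of the mitochondrial genome, whose share of counts differed between the 0 h libraries, so that both are uncertain.

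**Figure D3:**
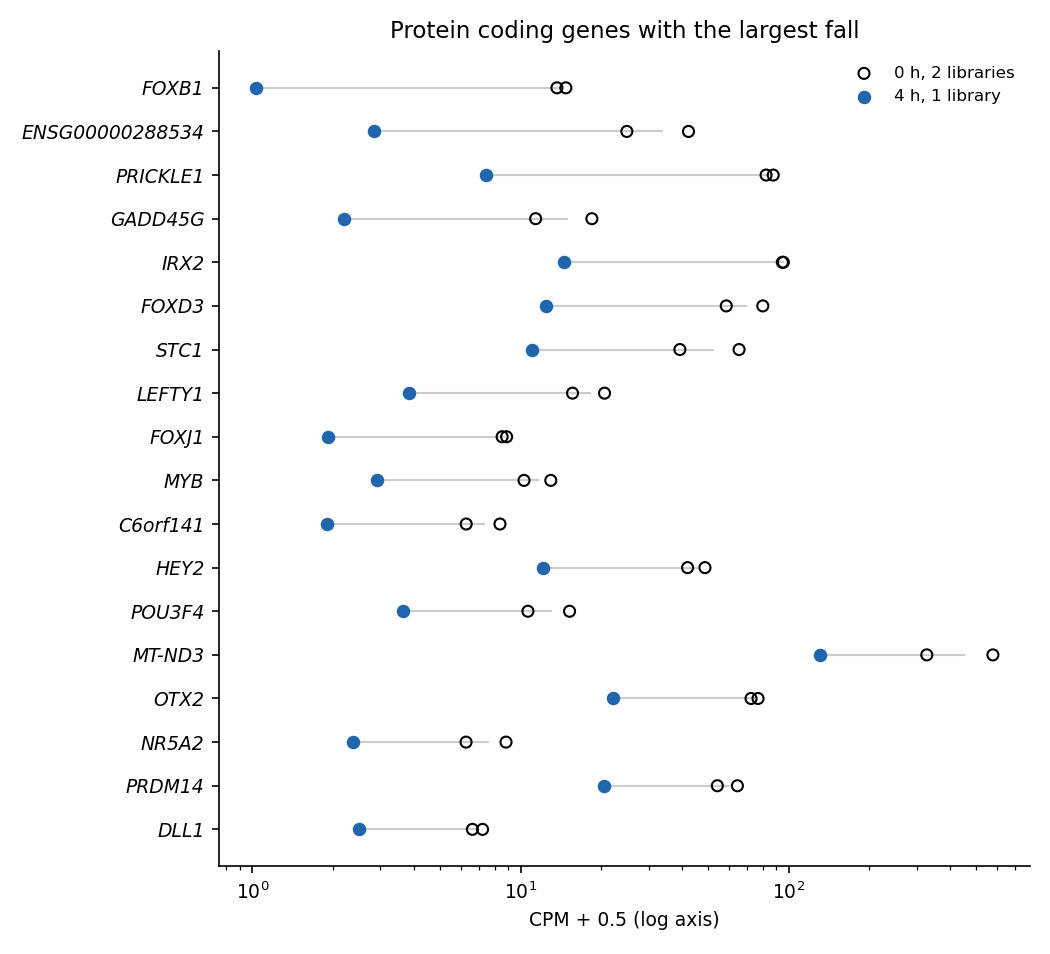
Called protein coding genes with the largest log2 fall at 5 CPM or more, as far as they are reported here, with CPM plus 0.5 on a log axis; open circles are the 2 libraries at 0 h, the filled circle the 1 library at 4 h, and the line runs from the 0 h mean. FOXB1 lies farthest from its 0 h values, at 0.529 CPM after 4 h.

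In CPM the largest falls included further regulators. TGIF1, a repressor that acts with SMADs of the Nodal branch, fell from 127 and 144 CPM to 60.6 CPM (adjusted p = 0.0103). LRIG1, an inhibitor of growth factor receptors, fell from 208 and 221 CPM to 93.0 CPM (adjusted p = 0.00891), and TENT5B, a noncanonical poly(A) polymerase, from 185 and 239 CPM to 83.9 CPM (adjusted p = 0.00257). The histone gene H4C12 was at 212, 368 and 136 CPM. It belongs to a family of near-identical genes, its 0 h values lay far apart, and its call was lost with DESeq2 (adjusted p = 0.0523). The following 3 metallothionein genes fell, of 16 tested heat shock and metallothionein genes: MT1X (112, 82.0 and 37.6 CPM), MT1G (107, 114 and 46.2 CPM) and MT1F (24.9, 15.2 and 8.94 CPM, adjusted p = 0.0546 with DESeq2). They are close copies of one another and can share reads. For this list and the next, the share of all genes tested that fell was 0.719%. Of 12 genes of retinoid metabolism 1 was called: LRAT, an enzyme of retinoid storage, fell from 45.0 and 38.1 CPM to 16.6 CPM (adjusted p = 0.00152).

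Some lists held no called gene, and with 3.76% of all genes tested called as higher and 0.719% as lower, lists of this size would hold about 1 call or fewer at the share of all genes, so that these counts are near the background. None of 17 targets of YAP and SRF, 18 genes of the integrated stress response, 17 p53 targets, 24 genes of cholesterol synthesis and 17 enzymes of histone and DNA methylation passed the adjusted threshold of edgeR in either direction. The log2 changes of their members ranged from −0.74 to 0.84. DESeq2 called none of them either. At an unadjusted p under 0.05 there were 3 of the YAP and SRF targets, 1 higher and 2 lower, 1 stress response gene and 2 p53 targets, these higher, and 0 genes of cholesterol synthesis and of the methylation enzymes. Of 20 genes of glycolysis and hypoxia, ADM (24.2, 29.3 and 74.9 CPM) and EGLN3 (23.9, 33.2 and 97.7 CPM) rose. By count, lists with 1 or 2 rises, such as this one and those of FGF signalling and the cell cycle, are not far from the background either. Of 13 genes of EMT and cadherins, OVOL2 rose, at 3.61, 4.75 and 9.20 CPM (adjusted p = 0.048), a call lost with DESeq2 (0.318), DESeq2 size factors (0.0517), no filter (0.116) or without mitochondrial genes (0.0532), and CDH1, which encodes E-cadherin, was at 308, 262 and 287 CPM. None of the 24 HOX genes reached the level needed for a test.

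Markers of other cell types were few. Their counts stand beside 3.76% higher and 0.719% lower over all genes tested. Of 19 genes of primitive streak and mesendoderm, 4 were tested and 1 was called: FOXA2, which fell from 3.19 and 2.92 CPM to 0.154 CPM (adjusted p = 4.37e-10). TBXT, the defining factor of the streak, was at or below 0.294 CPM in the 3 libraries. EOMES was at 0.211 and 0.308 CPM at 0 h and 1.39 CPM at 4 h, below the level needed for a test. Among definitive endoderm markers HHEX rose from 0.316 and 0.379 CPM to 7.44 CPM (adjusted p = 1.99e-20) beside the fall of FOXA2, the only 2 tested of 11. HHEX passed the filter only through its 4 h value and could therefore only come out as higher. Of 17 trophoblast markers 3 were tested and 1 was called, the endogenous retroviral envelope gene ERVFRD-1 (2.19, 1.64 and 5.89 CPM, adjusted p = 0.0700 with DESeq2). Of 14 neural markers 5 were tested and HESX1, a homeobox factor of the forebrain, fell (6.40, 5.80 and 2.76 CPM, adjusted p = 0.0381), a call lost with DESeq2 (0.14), library totals (0.071) or all 7 time points (0.11). None of 6 tested fibroblast and blood markers was called by edgeR or DESeq2, and at an unadjusted p under 0.05 there were 1 higher and 1 lower.

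**Figure D4:**
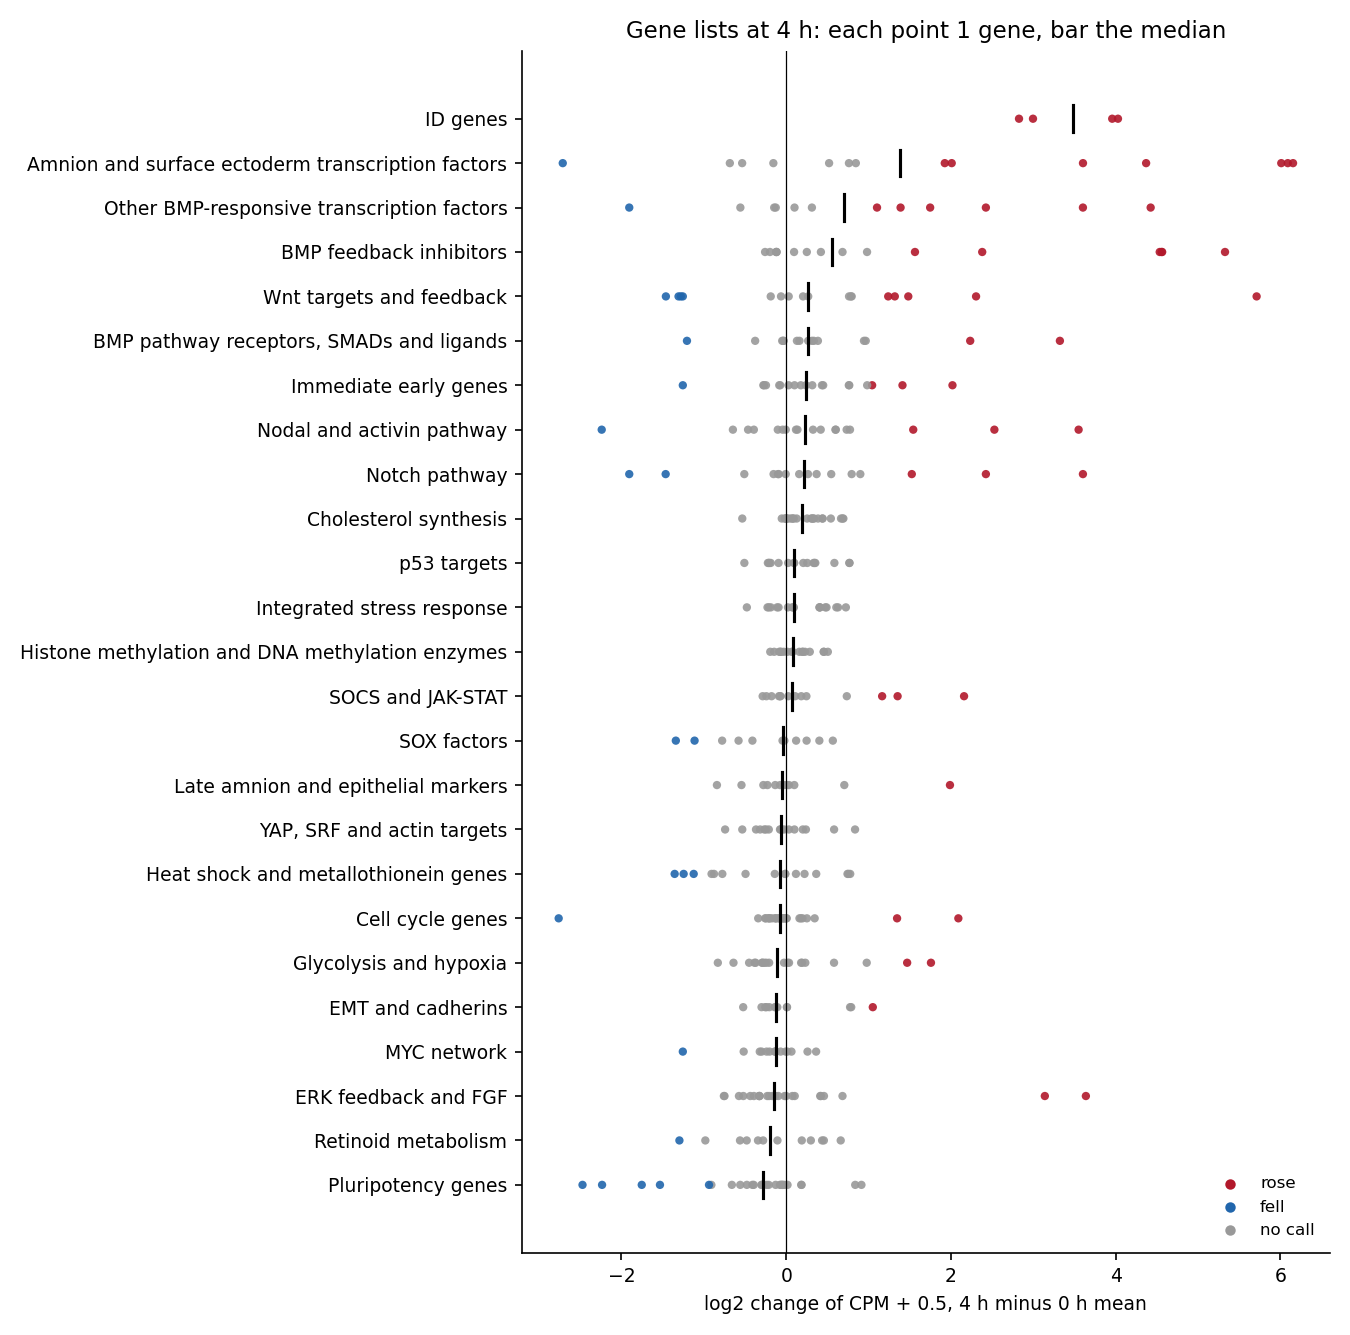
Each point is 1 tested gene of a list, placed by its log2 change at 4 h, with genes that rose in red, genes that fell in blue and genes without a call in grey; the bar is the median of the list, and reported lists with at least 10 tested genes are shown, together with the 4 ID genes. The medians run from 3.48 for the ID genes to −0.28 for the pluripotency genes, and the lists of stress and cholesterol genes hold grey points near 0.

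Of the genes that rose, 486 were protein coding and 74 were lncRNAs, and of those that fell 92 and 16. PCAT14 had the largest log2 change among lncRNAs with 0.5 CPM added, an order that depends on what is added since others started nearer to 0. It went from 1.11 and 0.589 CPM to 162 CPM (fitted 7.56 ± 0.37, adjusted p = 3.1e-88). LINC02593 went from 0.184 and 0.028 CPM, or 7 and 2 counts, to 37.3 CPM (adjusted p = 3.19e-87). It lies beside SAMD11 on the opposite strand of chromosome 1, with 2907 bases between the starts (GENCODE 44, GRCh38). ENSG00000258525 overlaps COCH and TFAP2A-AS2 overlaps TFAP2A, each on the opposite strand, and they went from 0.501 and 0.364 CPM to 7.99 CPM and from 0.342 and 0.280 CPM to 6.09 CPM. ENSG00000278996 was listed at 0 in both 0 h libraries and at 23.7 CPM at 4 h, but at 5 h it was between 0 and 9.71 CPM with no order by dose, so that its call is uncertain. A protein coding gene that rose overlapped, or started within 5000 bases of, 20 of the 74 lncRNAs that rose (27.0%), and 17 of the other 1600 tested lncRNAs (1.06%). GATA2 with GATA2-AS1 (log2 changes 6.01 and 3.16) and SOCS2 with SOCS2-AS1 (2.16 and 1.90) were further pairs. For genes that fell, such a neighbour was found for 4 of 16 lncRNAs that fell, the partners being PRICKLE1, FZD7, IRX2 and SOX21, and for 9 of the other 1658 (0.543%). Whether strand was used in counting is not given in the sources used here, so that reads of overlapping partners cannot be told apart. Among lncRNAs that fell, ENSG00000261757 (9.09, 4.71 and 0.728 CPM) and ENSG00000289533 (10.2, 6.36 and 1.65 CPM) had the largest changes, followed by ENSG00000282048 (16.7, 13.8 and 5.41 CPM). ENSG00000289195 (7.30, 5.99 and 2.78 CPM) lost its call with DESeq2 (adjusted p = 0.0717) and with a fit on all 7 time points (0.0534). ENSG00000282885 was at 108 and 263 CPM at 0 h and 84.5 CPM at 4 h, and DESeq2 did not call it (adjusted p = 0.154).

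The protein coding genes that rose were longer than those that fell. The median span in the genome was 45596 bases for genes that rose and 14358 bases for genes that fell, against 34456 bases over all tested, and the median number of exons of the longest transcript was 7, 3 and 8. These are descriptions, and the filter and the power of the test depend on level.

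The dose response at 5 h gave values for the same genes in other libraries, made with another RNA kit and polyA selection instead of depletion of ribosomal RNA. Of the genes that rose at 4 h, 549 had at least 1 CPM at 5 h with BMP4 or untreated. BMP4 was above untreated for 535 of them (97.4%), against 61.6% of all 14916 genes at this level, and 2-fold or more above for 387 (70.5%), against 4.91% of all. Of the genes that fell, 103 had this level, 9 of these (8.74%) were above untreated, and 67 (65.0%) were 2-fold or more below, against 1.72% of all. With LDN, 327 of the 549 (59.6%) were lower at each higher dose, against 7.88% of all genes, and 44 of the 103 (42.7%) were higher at each step, against 6.62%. NAT8L, named after its value was seen, was the 1 gene that rose at 4 h and was higher at each LDN step. The median log2 difference of BMP4 from untreated was 1.37 for genes that rose and −1.19 for genes that fell. With 1 library per condition these differences have no replicate, and time differed by 1 h.

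Genes that rose differed in how much of the 5 h difference was left at 300 nM LDN. The median share left, on the log2 scale, was 25.4% over the 387 genes. NOG was at 30.1, 13.7, 4.89, 1.42 and 0.241 CPM from 0 to 300 nM LDN and at 0.128 CPM untreated. GATA3 was at 73.2, 45.0, 23, 8.04 and 1.12 CPM, and 0.385 CPM untreated, and TFAP2A at 44.8 CPM without LDN and 0.543 CPM at 300 nM. These genes came close to the untreated level. ID1 was at 1055, 1000, 843, 616 and 376 CPM, and 65.6 CPM untreated, so that 62.8% of its log2 difference was left. ID3 was at 325, 328, 297, 223 and 142 CPM, and 51.5 CPM untreated. For PLEC 60.6% and for ADM 67.4% were left, and in all 52 of the 387 genes kept at least 50%, a limit chosen after the values were seen.

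Genes that fell differed in the same respect, and 24 of 67 kept at least 50% of their 5 h difference at 300 nM LDN. PRICKLE1 was at 3.34, 7.59, 13.1, 25.3 and 36.1 CPM with rising LDN and at 43.3 CPM untreated. PRDM14 was at 14.6 CPM without LDN, 76.3 CPM at 300 nM and 73.1 CPM untreated, and OTX2 at 12.0, 49.7 and 58.9 CPM. IRX2 (12.0 to 55.8 CPM) passed the untreated level of 45.6 CPM. FOXD3 was between 26.2 and 62.7 CPM and untreated at 35.6 CPM, so that BMP4 with 10 nM LDN or more lay above untreated. Other genes barely moved with LDN. STC1 was between 6.50 and 8.99 CPM at all 5 doses and at 27.5 CPM untreated. FOXA2 was at or below 0.184 CPM at all 5 doses and at 3.97 CPM untreated. MT1X was between 33.0 and 37.1 CPM at all doses and at 57.2 CPM untreated. All 5 LDN libraries held BMP4 and IWP2 and the untreated library neither, and the untreated library had the higher mitochondrial share. The part of IWP2, of the ROCK inhibitor and of library quality in these values was not tested.

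**Figure D5:**
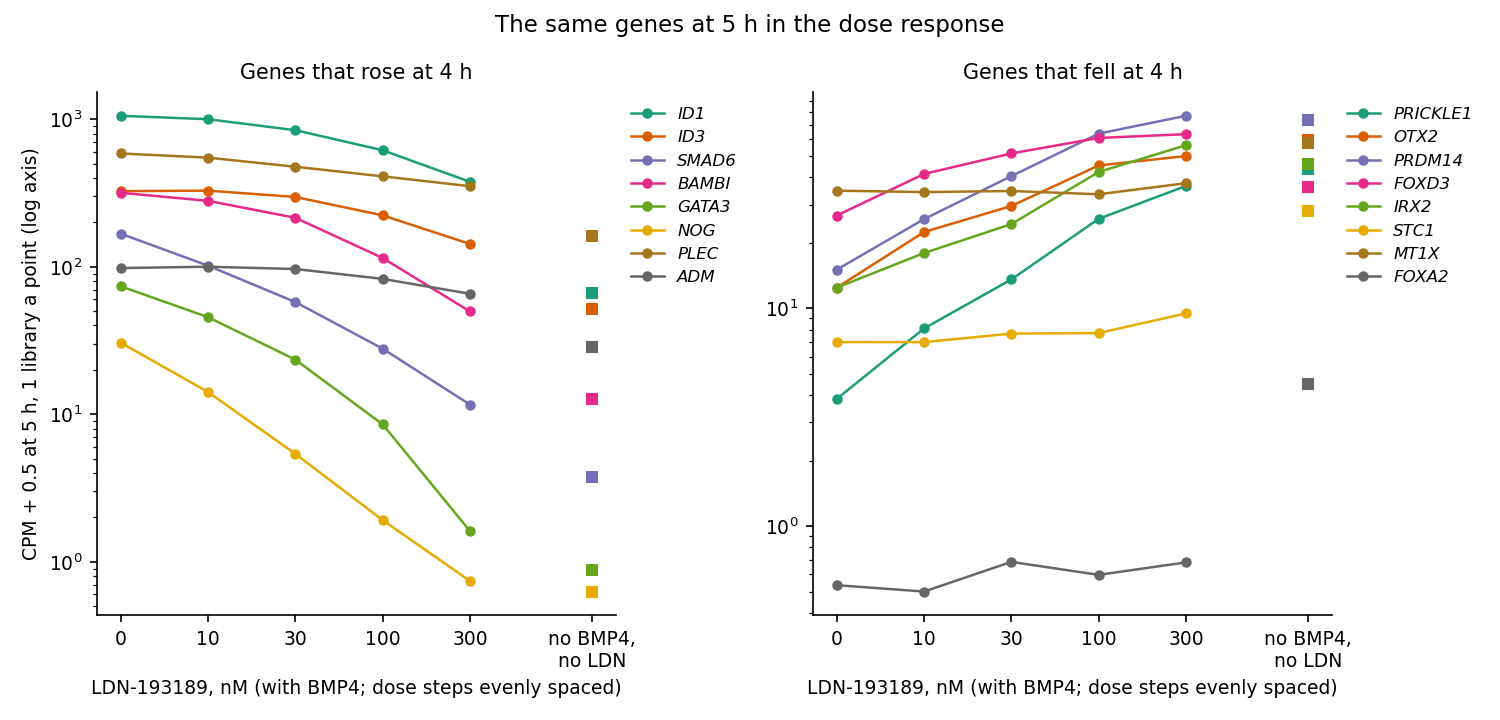
CPM plus 0.5 at 5 h on a log axis against the LDN dose in libraries with BMP4 and IWP2 (circles, dose steps drawn at even spacing, 1 library a point), with the untreated library as a square at the right of each panel. NOG, GATA3 and SMAD6 drop steeply with LDN while ADM and PLEC drop less, from 97.5 to 65.1 CPM and from 586 to 351 CPM between 0 and 300 nM. On the right PRICKLE1, OTX2 and PRDM14 climb towards the untreated level while STC1, MT1X and FOXA2 stay flat below it.

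The later libraries of the time series share the 0 h libraries, and their values are given beside those of 4 h without a test. Of the genes that rose, 217 (36.1%) were highest at 4 h itself, while 78 peaked at 12 h, 160 reached their maximum at 20 h, 53 peaked at 28 h and 93 were highest in the last library, at 42 h, counted on genes chosen for a high 4 h value. Some rises were passing. FGF4 was at 19.0 CPM at 4 h, 9.17 CPM at 12 h and 0.0817 CPM at 42 h, HHEX at 7.44, 3.80 and 0.147 CPM, CBLN1 at 72.2, 58.4 and 0.801 CPM, and CFC1 at 14, 9.14 and 0.294 CPM. Others went on. HAND1 was at 5.98, 22.1 and 2919 CPM, MSX2 at 21.6, 115 and 789 CPM, and TBX3 at 3.71, 14 and 702 CPM. IGFBP3 was at 57.3 CPM at 4 h, 14.5 CPM at 12 h, 10.4 CPM at 20 h and 2085 CPM at 42 h. ID1 stayed between 1276 and 1604 CPM from 12 h on. Of the genes that fell, 57 (49.6%) had their lowest value at 42 h and 23 at 4 h. OTX2 was at 21.6 CPM at 4 h and 5.68 CPM at 12 h, and PRICKLE1 stayed at or below 6.91 CPM. IRX2 was lowest at 4 h and at 103 CPM at 20 h. DLL1, low at 4 h, was at 48.2 CPM at 42 h.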

How the data were processed

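RNA of the time series was extracted with the RNAqueous micro kit, depleted of ribosomal RNA and sequenced on a NovaSeq flow cell. The dose response used the RNeasy micro kit and polyA selection. Reads were trimmed by the authors (Cutadapt) and aligned with STAR 2.7.8a against GRCh38, and RSEM 1.3.3 gave the estimated count of each gene. Which ENSEMBL release was used is not given in the sources used here. The deposited tables hold expected counts, not scaled for depth, and the FPKM values that the authors normalized for length and depth, used in an alternative only.

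CPM was computed on the total of each library over all 61546 features listed, which are the 61541 human genes and 5 features that are not human. Counts were rounded and tested with edgeR 4.0.16 in R 4.3.3 (TMM normalization, glmQLFit and glmQLFTest, Benjamini-Hochberg adjustment over all 15992 genes, threshold 0.05) on the 3 libraries. The lone 4 h library was thereby assumed to vary like the 0 h pair. DESeq2 1.42.0 was an alternative. The procedure was also run on simulated counts, with an outcome not given here. The simulated 4 h library was drawn with the spread of the 0 h pair, and changed genes were picked above 5 CPM. The simulation therefore cannot show how a separate 4 h culture varies, or how genes at low level behave. Totals and the floor of 3 counts reflect counting error only. Levels in CPM are not per length, so that rankings by the change in CPM and sums over genes also depend on transcript length. Positions were taken from GENCODE 44 by gene identifier (61369 matched) and promoters from RefSeq. Short motifs beyond those given were searched in the promoters and are not reported.

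Genes named were those of 32 lists of pathways and cell types, the 20 protein coding genes with the largest log2 rise and fall at 5 CPM or more, the 10 with the largest rise and fall in CPM outside the mitochondrial genome, and the 5 lncRNAs with the largest rise and fall. Others are marked, and a few genes and lists that met this rule are not reported here. The members and lists were chosen with earlier results of these data known. Alternatives covered normalization, filters, pseudocount, test, mitochondrial genes, FPKM and each 0 h library. Samples were grouped by their labels.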

Additional observations from a re-analysis of the deposited data

Results flagged for a closer look

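Of the genes that rose at 4 h, 3 were 2-fold or more lower with BMP4 than in untreated cells at 5 h, opposite in direction in the 2 experiments. The difference between the experiments was not tested. ENSG00000245025, which overlaps RHOBTB2 on the opposite strand, was at 2.11 and 1.42 CPM at 0 h and 4.66 CPM at 4 h, a log2 change of 1.19, and at 0.278 CPM with BMP4 and 1.28 CPM untreated at 5 h, a log2 difference of −1.20. SLC2A3P1, a pseudogene, was at 0 and 0.407 CPM at 0 h and 4.08 CPM at 4 h (2.7), and was listed at 0 at every LDN dose and at 2.56 CPM untreated (−2.62). ENSG00000269243 was at 2.19 and 1.64 CPM at 0 h and 5.43 CPM at 4 h (1.3), and at 1.11 CPM with BMP4 and 9.04 CPM untreated (−2.56). These 3 genes lie outside the rule for named genes and were named after their values were seen. No group held 4 libraries, so that no test for a single outlying library could be made.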

How the results depend on the processing

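Counts of called genes depended on the filter and the tool more than on the scaling. With edgeR, 601 genes rose and 115 fell. At a mean of at least 5 CPM, 356 rose and 65 fell, as fewer genes were tested. With no filter on low counts 772 rose and 184 fell, of which 510 and 110 were shared with the main fit. DESeq2 called 366 that rose, 365 of them shared with edgeR, and 78 that fell. With DESeq2 size factors, library totals, a fit on all 7 time points or no mitochondrial genes, the counts were between 588 and 669 for genes that rose and between 101 and 119 for genes that fell. By the 2-fold rule 641 genes were higher and 105 lower. With 2 CPM added these were 422 and 59, and at a mean of at least 5 CPM 355 and 65. Other alternatives to this rule gave 532 to 835 and 108 to 134 or, against a single 0 h library, 712 to 800 and 126 to 155. Leaving out a 0 h library left edgeR no residual degree of freedom, so these are values without a test. The share of genes changed alike at 5 h was between 96.4% and 97.4% for genes that rose and between 91.3% and 94.2% for genes that fell. No direction of a count or of a named gene reversed under these settings. Of 114 named genes that were called, 14 lost the call with DESeq2. No paired analysis was possible because the 4 h group holds 1 library. With 1 library at 4 h, variation between cultures was not measured, and genes below 1 CPM could not be judged.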
